A study of Mus musculus with 24 samples.

Results

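Cerebellar tumours raised with 2 different Cre drivers were compared gene by gene: all 8 tumours of hGFAP:GnasCKO mice against all 8 tumours of Oligo1:GnasCKO mice, which are 16 of the 24 arrays of the series. The comparison ran over the 10588 autosomal genes among 10983 genes tested, of 20893 genes measured. Each gene was then placed by its group means: within the span when the hGFAP mean lay between the Oligo1 mean and the adult cerebellum mean, beyond the Oligo1 mean, or beyond the adult mean. The tumours are called hGFAP and Oligo1 tumours here. Both groups carried the GnasCKO genotype, a conditional knockout of Gnas, on a mixed C57BL/6 x 129 strain, and were dissected at endpoint with no age recorded. The hGFAP driver uses the human GFAP promoter. The Oligo1 driver is named for Olig1, and its promoter is not described in the labels. The 5 adult wild-type cerebella that place the genes were of postnatal day 95 and postnatal day 122 (both C57BL/6), of an unspecified adult age, and 2 of postnatal day 60 (these 3 of the mixed strain). A further 3 wild-type C57BL/6 cerebella of embryonic days 15 and 18 and postnatal day 0 entered the fit and are given as developing cerebellum. The labels used here do not state litters, founder lines or the share of tumour cells in a sample.

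The product of Gnas is Gsα, a G protein subunit through which receptors switch on adenylyl cyclase; the cyclic AMP made in this way turns on protein kinase A. In granule neuron precursors of the cerebellum, protein kinase A holds back the Sonic Hedgehog (SHH) pathway, whose overactivity drives one class of medulloblastoma. The human GFAP promoter drives Cre in radial glia and neural stem cells, from which neurons and glia of the cerebellum descend, and Olig1 marks progenitors of the oligodendrocyte lineage. The comparison asks whether tumours begun through different progenitor drivers ended with different expression.

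Gnas itself did not pass the test between the tumour groups. Its level was 7.38 to 9.33 (log2 array intensity) with a median of 8.00 in hGFAP tumours, against 6.96 to 8.41 with a median of 7.96 in Oligo1 tumours, and 9.69 to 9.87 in adult cerebellum. The tumour groups overlapped, and all 16 tumours lay below every adult array. The difference was 0.33 (SE 0.26, limma adjusted p = 0.326). Against adult cerebellum, Gnas fell by 1.64 in hGFAP tumours (adjusted p = 0.000112) and by 1.97 in Oligo1 tumours (adjusted p = 4.59e-06); both comparisons share the adult arrays.

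The arrays did not form 2 tight tumour groups. Over 3116 genes whose Oligo1 and adult means lay at least 2-fold apart, the median position on the way from the Oligo1 mean (0%) to the adult mean (100%) was 3.75%, 5.24%, 53.2%, 23.5%, 93.3%, 48.7%, 2.71% and 20.3% in hGFAP tumours 1 to 8. In Oligo1 tumours 1 to 8 it was -18.7%, -11.0%, -10.0%, 0.952%, 0.228%, 2.32%, 14.8% and 24.7%. hGFAP tumour 5 stood next to the adult arrays, and hGFAP tumours 1, 2, 4, 7 and 8 lay within the range of the Oligo1 tumours. hGFAP tumour 5 also had the fewest genes above the table's median of 7.61, 7903, against up to 9362 on the other arrays, and the lowest median correlation with its own group, 0.740. No 2 arrays were copies: the closest pair correlated at 0.990 across genes. By Xist and Y-linked genes, 7 hGFAP tumours were male and 1 female, against 2 male and 6 female Oligo1 tumours, so that sex moved with the driver. The descriptions of tumours 1 to 4 and of tumours 5 to 8 of each group follow 2 naming styles, and what the styles mark is not stated. The median SD over autosomal genes was 0.316 in hGFAP tumours, against 0.248 in Oligo1 tumours and 0.165 in adult cerebellum.

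**Figure D1:**
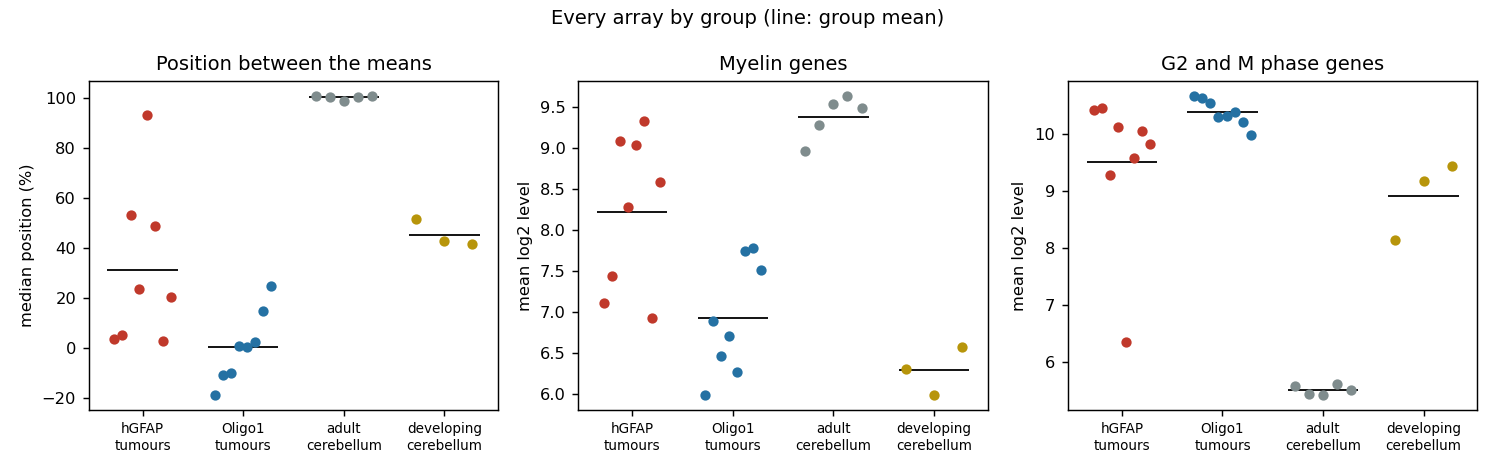
Each point is 1 array and each line a group mean, with hGFAP tumours, Oligo1 tumours, adult and developing cerebellum from left to right. The left panel gives the median position between the Oligo1 mean (0%) and the adult mean (100%) over 3116 genes, the middle panel the mean log2 level of 11 myelin genes, and the right panel the mean log2 level of 18 G2 and M phase genes; hGFAP tumour 5 sits at 93.3% on the left and at 6.34 on the right, next to the adult arrays.

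In the fit over all 24 arrays, 2005 of 10588 autosomal genes passed the test between the tumour groups (18.9%; limma, Benjamini-Hochberg adjusted p under 0.05). In hGFAP tumours 1095 were higher (10.3%) and 910 lower (8.59%), while the median difference over all autosomal genes was -0.05 (log2, hGFAP minus Oligo1). A difference of at least 2-fold was reached by 251 called genes, 216 higher and 35 lower. The split between directions depended on scaling: with each array centred on its median, 855 genes were higher and 1449 lower. The number called also depended on the arrays in the fit. With only the 16 tumours fitted, 213 genes were called, 138 higher and 75 lower, and with sex as a covariate 28 were called, 17 higher and 11 lower. Tumours 1 to 4 of both groups alone gave 1828 calls, tumours 5 to 8 alone gave 7, and naming style as a block gave 855. Leaving out 1 tumour gave 517 calls without hGFAP tumour 3, 1114 without hGFAP tumour 5, 542 without hGFAP tumour 6, 3060 without hGFAP tumour 7, 502 without Oligo1 tumour 1, 974 without Oligo1 tumour 2 and 707 without Oligo1 tumour 3.

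Most called genes lay between the other group means. Of the 2005, 1725 (86.0%) were within the span, 975 of them higher and 750 lower in hGFAP tumours. Among all autosomal genes tested, called or not, 73.2% were within it. A called gene within the span stood, at the median, 48.0% of the way to the adult mean, and 134 of the 1725 had gone over 80% of the way. The call itself leaves out genes near the Oligo1 mean, so it partly sets this median. Over the 3116 genes picked without regard to the call, the median position ran from 2.71% to 93.3% between hGFAP tumours. Beyond the Oligo1 mean, away from adult cerebellum, were 43 called genes, 24 higher and 19 lower. Beyond the adult mean were 237, 96 higher and 141 lower, and they passed the adult mean by a median of 0.13. Only 14 of those 237 passed it by at least 0.5 and 3 by at least 1. The placement uses the same hGFAP and Oligo1 values as the call and has no test of its own. At its edge, Slc17a5, at 10.11 in hGFAP tumours and 10.11 in adult cerebellum, fell just within the span, and Zw10, at 8.09 in both, fell just beyond the adult mean.

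Arrays of the tumour groups rarely separated outright. In 70 of 10588 genes (0.661%) the 8 hGFAP arrays and the 8 Oligo1 arrays did not overlap, and 69 of these were called, 32 higher and 37 lower in hGFAP tumours. In 64 called genes the Oligo1 arrays lay outside all hGFAP and adult arrays. In 0 called genes did the hGFAP arrays lie outside all Oligo1 and adult arrays.

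**Figure D2:**
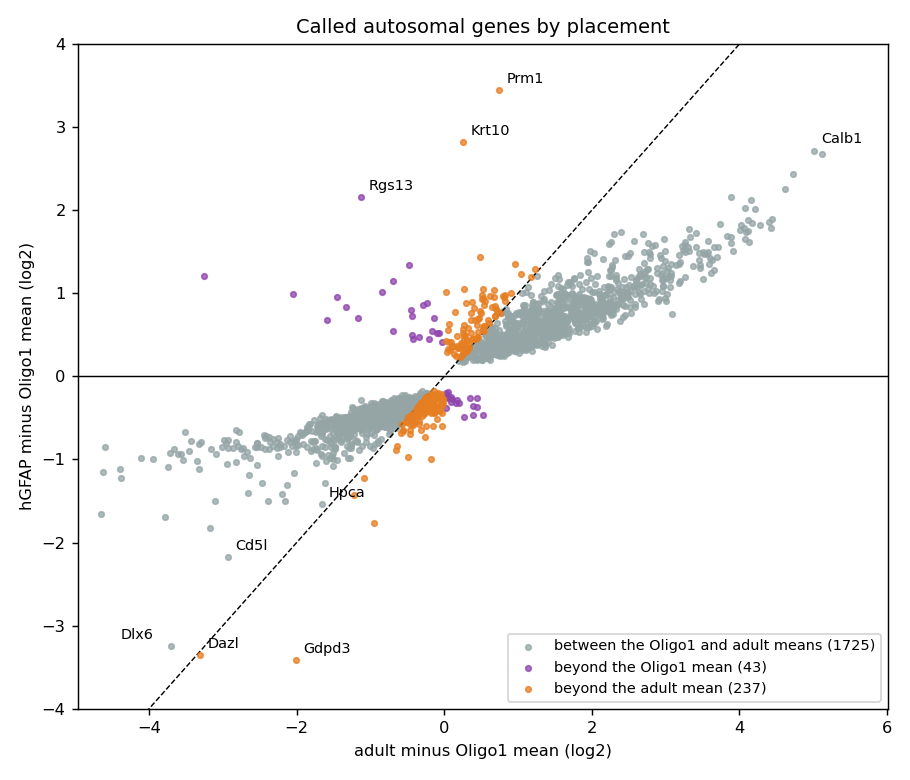
Each point is 1 of the 2005 called autosomal genes, with the adult minus Oligo1 mean on the horizontal axis and the hGFAP minus Oligo1 mean on the vertical axis (both log2). Points between the horizontal line and the dashed diagonal are the 1725 genes within the span. The 43 genes beyond the Oligo1 mean lie across the horizontal line and the 237 beyond the adult mean lie across the diagonal. Of those 237, Prm1, Krt10, Gdpd3 and Dazl stand farthest from 0, and Dazl lies next to the diagonal.

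A small set of genes stayed called under every array left out in turn, with only tumours fitted, with sex, naming style or replicate number as a term, under both other scalings and with the mean of probe sets. They numbered 25, of which 17 were higher and 8 lower in hGFAP tumours, 20 were within the span and 5 beyond the adult mean. Without the added terms and scalings, 204 genes held under each array left out and with only tumours fitted, 131 higher and 73 lower. In 20 of the 25 the tumour arrays did not overlap. This set was picked from the results, so its counts have no test, and it was not required to hold in smaller subsets: tumours 5 to 8 alone called 7 genes and male tumours alone 14. It held Dlx6, Hpca, Prm1, Krt10 and Gdpd3, which are described next, and several genes of myelin-forming cells.

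The largest differences outside the span were those of Prm1 and Krt10, higher in hGFAP tumours, and of Gdpd3 and Dazl, lower in hGFAP tumours. All 4 were placed beyond the adult mean. Oligo1 tumours did not differ by the test from adult cerebellum in Prm1 (-0.75, limma adjusted p = 0.133) or Krt10 (-0.26, 0.591). For Prm1 and Krt10 the side of the span is therefore not settled. Oligo1 tumours did differ from adult cerebellum in Gdpd3 (2.01, 0.00263) and Dazl (3.31, 0.00649). Against adult cerebellum, hGFAP tumours differed by 2.70 in Prm1, 2.56 in Krt10 and -1.40 in Gdpd3 (limma adjusted p = 4.31e-05, 4.86e-05 and 0.0365). Dazl differed from adult by only -0.04 (adjusted p = 0.977), so its hGFAP tumours were at the adult level. The 250 bases before the start of each of these genes are shown because these are the largest called differences placed beyond the adult mean. Sequences are from RefSeq on GRCm38.p6, 5′ to 3′ on the gene's strand, with every CG pair in capitals. Prm1 lies on the minus strand at chr16:10796824-10797073, Krt10 on the minus strand at chr11:99389365-99389614, Gdpd3 on the plus strand at chr7:126766164-126766413 and Dazl on the minus strand at chr17:50293621-50293870.
Prm1: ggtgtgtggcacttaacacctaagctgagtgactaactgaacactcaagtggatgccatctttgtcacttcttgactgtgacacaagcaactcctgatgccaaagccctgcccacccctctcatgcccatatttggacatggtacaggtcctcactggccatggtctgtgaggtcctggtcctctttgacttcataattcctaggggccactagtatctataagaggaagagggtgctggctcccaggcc
Krt10: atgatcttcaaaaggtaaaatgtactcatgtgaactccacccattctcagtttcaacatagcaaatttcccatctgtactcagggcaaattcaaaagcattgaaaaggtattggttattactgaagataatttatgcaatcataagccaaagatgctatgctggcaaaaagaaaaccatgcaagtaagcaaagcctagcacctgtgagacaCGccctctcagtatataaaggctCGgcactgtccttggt
Gdpd3: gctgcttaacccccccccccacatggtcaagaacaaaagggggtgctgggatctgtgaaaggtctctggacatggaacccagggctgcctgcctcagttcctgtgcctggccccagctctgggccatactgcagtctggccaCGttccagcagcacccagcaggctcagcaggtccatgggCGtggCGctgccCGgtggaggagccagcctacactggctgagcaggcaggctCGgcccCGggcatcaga
Dazl: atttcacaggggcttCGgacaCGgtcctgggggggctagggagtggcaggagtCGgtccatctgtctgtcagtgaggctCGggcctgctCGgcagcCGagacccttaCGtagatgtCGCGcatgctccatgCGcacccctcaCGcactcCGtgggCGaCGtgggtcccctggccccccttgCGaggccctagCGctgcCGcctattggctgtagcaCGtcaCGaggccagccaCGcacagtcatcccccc
The letters CG occur 0 times in the Prm1 window, 2 times in that of Krt10, 6 times in that of Gdpd3 and 20 times in that of Dazl. Among the 32851 promoter windows of the same length in the RefSeq table the median was 6, and 17.9% held at least as many as Dazl. CG reads the same on both strands, and the count is a description of the letters alone.

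Prm1 encodes protamine 1, which packs DNA in sperm. Its level in hGFAP tumours 1 to 8 was 9.21, 9.18, 9.89, 9.41, 9.12, 8.98, 9.41 and 9.03, against 6.18, 5.71, 5.94, 5.96, 5.93, 5.65, 5.65 and 5.63 in Oligo1 tumours 1 to 8. Every hGFAP tumour was high and every Oligo1 tumour low, with no overlap, and hGFAP tumour 5 was as high as the rest. The difference was 3.45 (SE 0.38, 10.9-fold higher in hGFAP, limma adjusted p = 3.52e-05). Adult array 3, the one of unspecified age and mixed strain, was at 9.63, while the other 4 adult arrays were at 5.31 to 6.24 and developing cerebellum at 5.58 to 6.18. The placement of Prm1 beyond the adult mean rested on adult array 3. It held in 40 of 41 other settings, and without that array Prm1 was placed beyond the Oligo1 mean. Prm1 rests on 2 probe sets that disagreed in size, one differing by 6.35 and the other by 0.55 between the tumour groups, although neither overlapped. As background, the 3′ end of mouse Prm1 serves as a polyadenylation signal in some transgene constructs; the labels give no construct sequence, and its part in this value was not tested.

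Krt10, a keratin of the outer layers of skin, was at 6.19 to 9.91 with a median of 9.25 in hGFAP tumours, against 5.27 to 6.53 with a median of 5.86 in Oligo1 tumours, and 5.89 to 6.32 in adult cerebellum. hGFAP tumour 5 lay within the Oligo1 range, hGFAP tumour 8 was at 7.76, and the other 6 were at 8.57 or above. The difference was 2.82 (SE 0.37, 7.05-fold higher, adjusted p = 0.000161), and all 8 of its probe sets moved the same way.

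Gdpd3, a glycerophosphodiester phosphodiesterase of lipid metabolism, was at 5.87 to 9.70 with a median of 6.28 in hGFAP tumours, against 10.05 to 10.71 with a median of 10.41 in Oligo1 tumours. The groups did not overlap, although hGFAP tumours 5 and 7, at 8.71 and 9.70, lay far above the other 6. Adult cerebellum spanned 6.49 to 9.57 and developing cerebellum 5.58 to 6.20. The difference was -3.41 (SE 0.48, 10.6-fold lower, adjusted p = 0.00035), and 9 of 10 probe sets had that direction. Adult arrays 4 and 5, both of postnatal day 60, were at 9.57 and 9.49, and the array of postnatal day 122 at 6.49. The remaining adult arrays lay between the highest and lowest of these, and no split by strain or age was tested.

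Dazl, an RNA-binding protein of germ cells, differed because some Oligo1 tumours were high. It was at 4.59 to 4.75 in all 8 hGFAP tumours. In Oligo1 tumours 1 to 8 it was at 11.98, 9.31, 11.30, 4.54, 4.87, 6.55, 10.997 and 4.62, and in adult cerebellum at 4.48 to 4.90. Oligo1 tumours 1, 2, 3 and 7 were high, tumour 6 was in between, and tumours 4, 5 and 8 were at the hGFAP level. The mean difference of -3.35 (SE 0.90, adjusted p = 0.0221) did not hold without Oligo1 tumour 1 (adjusted p = 0.0525), with only tumours fitted (0.0756) or with sex as a covariate (0.251).

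The remaining named genes beyond the adult mean differed by smaller amounts. Pla2g5, a secreted phospholipase, was higher in hGFAP tumours by 1.43 (SE 0.28, adjusted p = 0.00625) and was also above adult cerebellum, by 0.95 (adjusted p = 0.0166). Enpp6, a choline phosphodiesterase of newly forming oligodendrocytes, was higher by 1.35, Meig1, needed for sperm tail formation, by 1.23, Ctxn3, a cortexin of neurons, by 1.20, Hspb8, a small heat shock protein, by 1.05 and Amigo2, a neuronal adhesion protein, by 1.04. None of these 5 passed the test between hGFAP tumours and adult cerebellum. Between Oligo1 tumours and adult cerebellum, Pla2g5 (limma adjusted p = 0.18) and Hspb8 (0.58) did not pass, so their side of the span is not settled. With only tumours fitted, Enpp6 (adjusted p = 0.0519), Meig1 (0.0568), Hspb8 (0.0983) and Amigo2 (0.0516) were not called, and with sex as a covariate none of these 6 genes was, Pla2g5 at 0.11 and Ctxn3 at 0.195 included. On the lower side, H2-Eb1, a class II antigen-presenting chain, differed by -1.43, and Bcl2l2, which protects cells from apoptosis, by -1.23. Neither passed the test between hGFAP tumours and adult cerebellum (limma adjusted p = 0.741 and 0.727). Bcl2l2 was at 6.68 to 7.32 in hGFAP tumours, against 7.29 to 9.62 in Oligo1 tumours and 6.73 to 7.61 in adult cerebellum. The overlap of the tumour groups came from Oligo1 tumour 1 alone, the lowest of its group at 7.29. H2-Eb1 was not called with only tumours fitted (adjusted p = 0.0836) or with sex as a covariate (0.272), whereas Bcl2l2 was called in both (0.0435 and 0.0282).

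Dlx6 gave the smallest p-value of the autosomal genes and lay within the span. The Dlx genes encode homeobox transcription factors that specify GABAergic neurons of the forebrain, and Dlx5 and Dlx6 are neighbours on chromosome 6. Dlx6 was at 5.59, 6.49, 5.40, 5.79, 5.62, 6.12, 5.41 and 5.29 in hGFAP tumours 1 to 8, against 9.89, 8.82, 9.35, 8.18, 8.63, 9.03, 9.12 and 8.68 in Oligo1 tumours 1 to 8, and 5.07 to 5.71 in adult cerebellum. All Oligo1 tumours were high and all other arrays low, developing cerebellum included, at 5.33 to 5.47. The difference was -3.25 (SE 0.20, 9.51-fold lower in hGFAP, adjusted p = 3.84e-10), and the call held in all 40 other settings that gave Dlx6 a value. Dlx5 was at 6.00 to 7.05 in hGFAP tumours, against 7.11 to 8.34 in Oligo1 tumours, a difference of -1.31 (SE 0.16, adjusted p = 6.36e-05). The other 8 genes of the forebrain GABAergic homeobox list that are on the array and autosomal, Dlx1, Dlx2, Lhx6, Gsx1, Gsx2, Sp8, Sp9 and Nkx2-1, were too dim to be tested in any group. Among the 12 tested genes near Dlx6 on the chromosome, Slc25a13, a mitochondrial aspartate and glutamate carrier, differed by -0.85, and Sem1, a proteasome subunit, by -0.95. Both were called, as was Dlx5. These 3 of 12 stand beside 18.9% called among all autosomal genes and 29.2% on chromosome 6.

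Hpca encodes hippocalcin, a neuronal calcium sensor. It was at 9.73 to 11.37 with a median of 10.40 in hGFAP tumours, against 11.63 to 12.32 with a median of 12.03 in Oligo1 tumours. The groups did not overlap, and hGFAP tumours lay around the adult range of 10.003 to 10.53. The difference was -1.53 (SE 0.17, 2.8965-fold lower, adjusted p = 3.52e-05). Ror2, a receptor for Wnt5a, was at 7.496 to 8.50 in hGFAP tumours, against 8.64 to 9.34 in Oligo1 tumours, also without overlap, and at 6.96 to 7.24 in adult cerebellum, below every tumour. It gave a difference of -0.89 (SE 0.12, adjusted p = 0.000292). Thsd7a, a membrane protein with thrombospondin repeats, was lower by 0.92 and Map2k6, a kinase that activates p38, by 0.73 in hGFAP tumours, again without overlap.

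**Figure D3:**
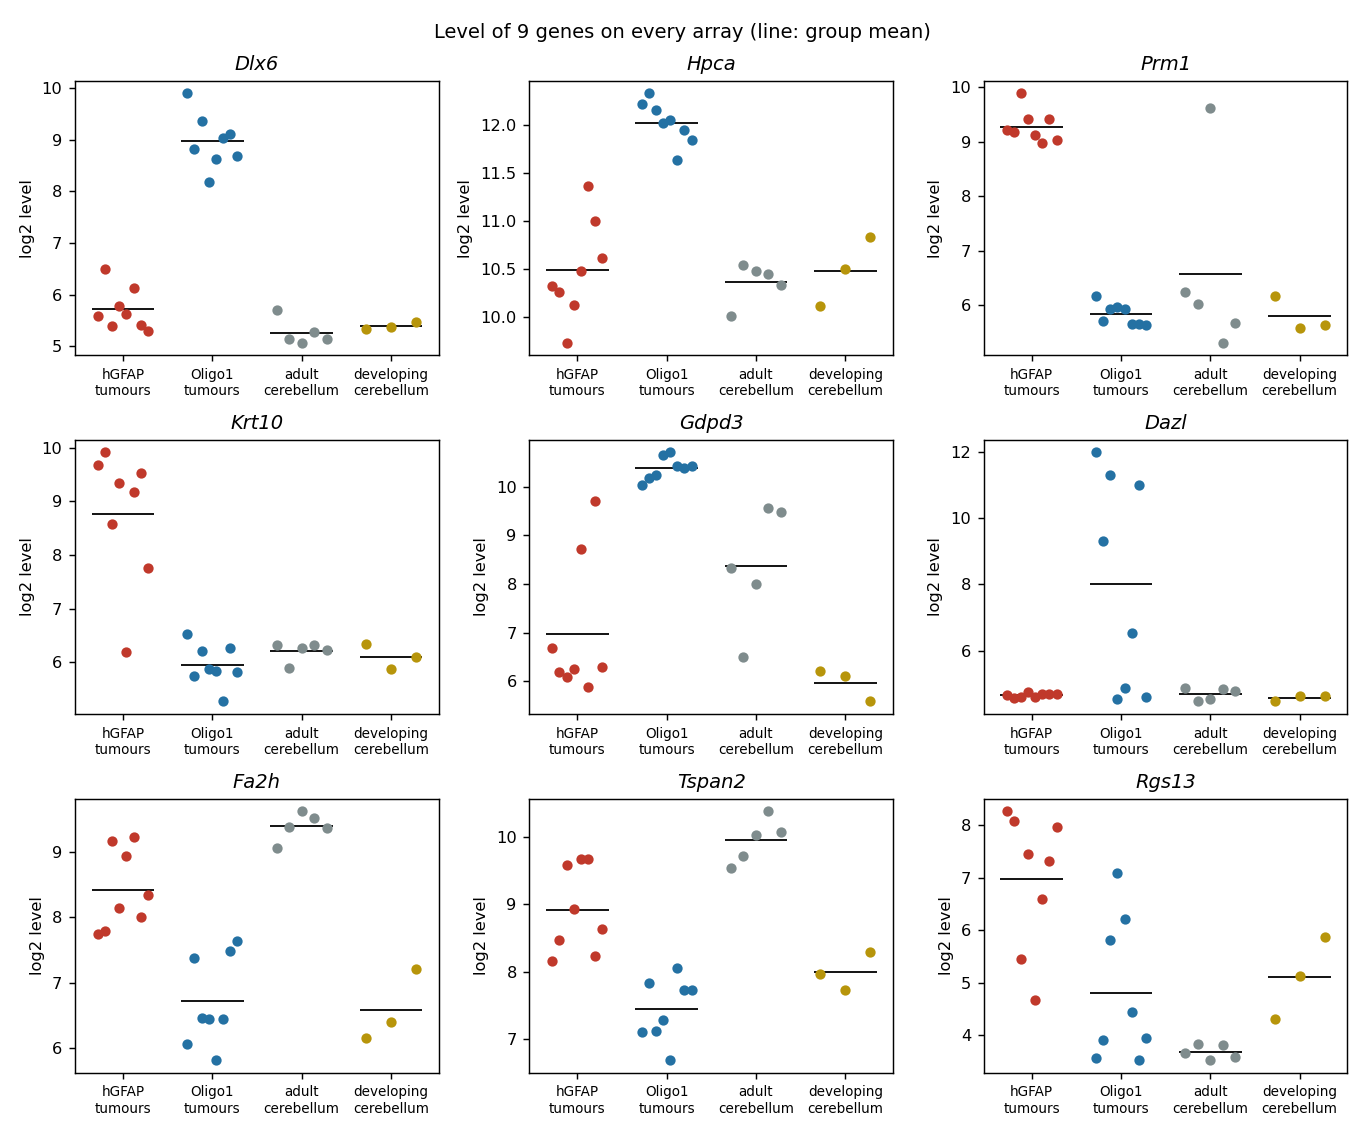
Each panel shows the log2 level of 1 gene on every array, with hGFAP tumours, Oligo1 tumours, adult and developing cerebellum from left to right and a line at each group mean. Dlx6 is high in all 8 Oligo1 tumours (8.18 to 9.89) and low elsewhere, Prm1 is high in all 8 hGFAP tumours and in 1 adult array (9.63), and Dazl is high in part of the Oligo1 tumours.

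The other named genes that were lower within the span were Cd5l, Slit1, Lama5, Islr2, Cpxm2 and H2-Aa. Cd5l, a protein secreted by macrophages, was at 5.01 to 5.60 in hGFAP tumours, against 5.44 to 8.93 in Oligo1 tumours, a difference of -2.17 (SE 0.36, adjusted p = 0.00176). Oligo1 tumours 5 and 8, at 5.44 and 5.87, were near the hGFAP level and the other 6 were at 6.85 or above. Lama5, a laminin chain of basement membranes, differed by -1.69, Slit1, an axon repellent, by -1.83, Islr2, a membrane protein of growing axons, by -1.66, Cpxm2, of the carboxypeptidase family, by -1.502 and H2-Aa, a class II antigen-presenting chain, by -1.502. Lama5 had levels of 6.81 to 9.57 in hGFAP tumours, against 8.88 to 11.12 in Oligo1 tumours and 5.83 to 6.60 in adult cerebellum, so all tumours of both groups were above the adult arrays. Islr2 (adjusted p = 0.078) and H2-Aa (0.0937) were not called with only tumours fitted, and none of the 6 was called with sex as a covariate (0.0584 for Cd5l and for Slit1, 0.0992 for Lama5, 0.157 for Cpxm2, 0.222 for Islr2 and 0.32 for H2-Aa). None of the 12 tested genes of the microglia and macrophage list passed between the tumour groups at these settings.

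Beyond the Oligo1 mean, away from the adult level, 5 called genes reached 2-fold, all higher in hGFAP tumours. They were Rgs13, Ifi203, L3mbtl4, P4ha3 and AI506816, a transcript without a gene name that differed by 1.21 and lies outside the rule for named genes. Between Oligo1 tumours and adult cerebellum, Rgs13 (limma adjusted p = 0.106), Ifi203 (0.42) and L3mbtl4 (0.079) did not pass the test. Their side of the span is therefore not settled, whereas P4ha3 did pass (0.0266). Rgs13, which shuts off G protein signals, was at 8.26, 8.08, 5.45, 7.44, 4.67, 6.58, 7.31 and 7.95 in hGFAP tumours 1 to 8, against 3.57, 3.91, 5.81, 7.08, 6.22, 4.44, 3.54 and 3.94 in Oligo1 tumours 1 to 8. The groups overlapped through hGFAP tumours 3, 5 and 6 and Oligo1 tumours 3, 4 and 5, while the adult arrays were all low, at 3.53 to 3.85. The difference was 2.16 (SE 0.54, 4.45-fold higher, adjusted p = 0.0168). It did not hold with only tumours fitted (adjusted p = 0.0645) or with sex as a covariate (0.145). Ifi203, of the interferon-inducible p200 family, differed by 1.34 (adjusted p = 0.0429), L3mbtl4, a putative binder of methylated histones, by 1.143 (0.0215) and P4ha3, a collagen prolyl hydroxylase subunit, by 1.01 (0.0266). None of these 3 was called with only tumours fitted (adjusted p = 0.0817 for Ifi203, 0.0737 for L3mbtl4 and 0.0568 for P4ha3) or with sex as a covariate (0.255, 0.206 and 0.222 in that order). Ifi203 lost its call in 20 of 40 other settings. L3mbtl4 was lower in hGFAP tumour 5, at 5.79, than in any Oligo1 tumour, and above every Oligo1 tumour in hGFAP tumours 1, 2, 4, 7 and 8.

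The genes that name the drivers were both placed beyond the Oligo1 mean. Gfap, the intermediate filament of astrocytes, was at 10.60 to 11.77 with a median of 11.20 in hGFAP tumours, against 9.11 to 11.08 with a median of 10.32 in Oligo1 tumours, and 8.14 to 9.03 in adult cerebellum. All tumours were above the adult arrays, and the tumour groups overlapped. The difference of 0.96 (SE 0.31, adjusted p = 0.0382) did not hold with only tumours fitted (adjusted p = 0.0656) or with sex as a covariate (0.26). Olig1, a transcription factor of the oligodendrocyte lineage measured by 1 probe set, was at 8.58 to 9.92 in hGFAP tumours, against 6.99 to 9.48 in Oligo1 tumours and 7.58 to 8.27 in adult cerebellum. Its difference of 0.86 (SE 0.26, adjusted p = 0.0313) did not hold with only tumours fitted (0.0809) or with sex as a covariate (0.241). Oligo1 tumours did not differ by the test from adult cerebellum in Olig1 (0.28, limma adjusted p = 0.401), so its side of the span is not settled. They did differ in Gfap (1.45, 0.000967). Among the 18 tested genes near Olig1 on the chromosome, 2 were called, both higher, and the median difference was -0.09. Among all autosomal genes 18.9% were called, with a median of -0.05.

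Rises within the span were led by genes of mature cerebellar neurons. Calb1, the calcium buffer of Purkinje cells, was at 7.86 to 12.10 with a median of 10.23 in hGFAP tumours, against 4.41 to 10.97 with a median of 7.20 in Oligo1 tumours, and 12.25 to 12.46 in adult cerebellum. hGFAP tumours 3, 5 and 6, at 11.63, 12.10 and 11.61, were closest to adult, and Oligo1 tumours 7 and 8, at 10.55 and 10.97, stood far above the other 6 Oligo1 tumours. The difference was 2.72 (SE 0.85, 6.57-fold higher, adjusted p = 0.0338). Gabra6, a receptor subunit for GABA found in granule neurons, differed by 2.67, Cbln3, a granule neuron synaptic protein, by 2.44, Arhgef33 by 2.26, Vsnl1, a calcium sensor, by 2.16, Car8, a Purkinje cell protein, by 2.12, Kcnip4, a potassium channel subunit, by 2.03 and Elmod1, a GTPase regulator, by 2.02. None of these 8 stayed called with only the tumours fitted or with sex as a covariate.

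Gene lists of cell types and pathways were read against the background of all autosomal genes, of which 10.3% were higher and 8.59% lower, with a median of -0.05. In bulk samples, fewer cells of a type and less RNA per cell cannot be told apart. Of 11 tested genes of mature granule neurons, 5 were higher in hGFAP tumours and 0 lower, with a median of 1.40. The mean level of the 12 listed genes was 7.60 to 10.77 in hGFAP tumours, against 6.85 to 9.62 in Oligo1 tumours and 11.03 to 11.34 in adult cerebellum. Of 11 Purkinje cell genes, 4 were higher, led by Calb1 and Car8, with a median of 1.05, while Pvalb (0.63, adjusted p = 0.416) did not pass. Of 9 genes of interneurons and unipolar brush cells, Gad1, which makes GABA, was higher by 1.73 and Tfap2a, an interneuron transcription factor, by 0.99, and 7 did not pass. The part of remaining normal neurons in the differences was not tested. No gene of the granule neuron list or the Purkinje list was called with only tumours fitted, with sex as a covariate or with the replicate block.

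Myelin and astrocyte lists each had 8 members higher in hGFAP tumours. Myelin wraps axons and is made by oligodendrocytes. Of 10 tested myelin genes, 8 were higher and 0 lower, with a median of 1.44. Cldn11, the tight junction protein of myelin, was at 8.72 to 11.10 in hGFAP tumours, against 7.32 to 8.9996 in Oligo1 tumours and 10.13 to 10.97 in adult cerebellum, a difference of 1.599 (SE 0.31, adjusted p = 0.00623). Cnp, an enzyme of myelin membranes, differed by 1.19 (adjusted p = 0.00851), Ermn, a myelin cytoskeletal protein, by 1.83 and Mog, on the outer face of myelin, by 1.65. Mobp (1.73, adjusted p = 0.058) and Mal (0.97, adjusted p = 0.0748) did not pass. The mean level of the 11 listed genes was 6.92 to 9.33 in hGFAP tumours, against 5.99 to 7.77 in Oligo1 tumours and 8.96 to 9.63 in adult cerebellum, so the tumour groups overlapped through hGFAP tumours 1, 2 and 7. With only tumours fitted, 2 of these 10 stayed called, and with sex as a covariate 0 did.

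Several genes outside that list that act in myelin-forming cells were among these 25. They were picked out after their values were seen. Fa2h, which makes the hydroxylated lipids of myelin, was at 7.74 to 9.24 in hGFAP tumours, against 5.81 to 7.64 in Oligo1 tumours and 9.07 to 9.63 in adult cerebellum. The tumour groups did not overlap, and the difference was 1.71 (SE 0.28, 3.28-fold higher, adjusted p = 0.00144; 0.031 with sex as a covariate). Tspan2, a tetraspanin of oligodendrocytes, was at 8.16 to 9.68 in hGFAP tumours, against 6.68 to 8.06 in Oligo1 tumours, a difference of 1.48 (SE 0.24, adjusted p = 0.00144). Myrf, the transcription factor that switches on myelin genes, was at 7.24 to 8.94 in hGFAP tumours, against 5.92 to 7.51 in Oligo1 tumours, a difference of 1.51 (SE 0.25, adjusted p = 0.0021). The Myrf ranges overlapped through hGFAP tumour 1 and Oligo1 tumours 2 and 6. Gatm, which makes a precursor of creatine, was higher by 0.76 without overlap.

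Of 13 genes of astrocytes and Bergmann glia, 8 were higher in hGFAP tumours and 0 lower, with a median of 0.74. Gdf10, a growth factor made by Bergmann glia, was at 9.41 to 10.79 in hGFAP tumours, against 6.90 to 9.22 in Oligo1 tumours, with no overlap and a difference of 1.63 (SE 0.32, adjusted p = 0.00625). Gja1, an astrocyte gap junction protein, differed by 1.22 and Aqp4, a water channel of astrocyte endfeet, by 1.00. Aldoc (1.21, adjusted p = 0.068) and Fabp7 (-0.14, adjusted p = 0.679) did not pass. In the oligodendrocyte lineage list, 3 of 11 were higher, Nkx2-2 by 0.90, Olig1 by 0.86 and Ptprz1 by 0.56, with a median of 0.42. Pdgfra, the receptor that marks oligodendrocyte precursors, was at -0.10 (adjusted p = 0.837) and Olig2 at -0.38 (adjusted p = 0.129). With only tumours fitted, 1 astrocyte gene and 1 oligodendrocyte lineage gene stayed called, and with sex as a covariate 0 of either list did.

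Genes of proliferation and of the SHH pathway differed in few single members. All 18 tested G2 and M phase genes had a negative difference, with a median of -0.87, but only Birc5, an inhibitor of apoptosis in dividing cells (-0.88, adjusted p = 0.0298), and Bub1b, a spindle checkpoint kinase (-0.85, adjusted p = 0.0427), passed. Their mean level was 10.43, 10.47, 9.29, 10.13, 6.34, 9.59, 10.07 and 9.84 in hGFAP tumours 1 to 8, against 9.99 to 10.68 in Oligo1 tumours and 5.42 to 5.60 in adult cerebellum. hGFAP tumour 5 was near the adult level, and without it the median was -0.43. All 18 S phase genes had a negative difference too, with a median of -0.69 (-0.37 without hGFAP tumour 5), and 0 passed. Of 13 SHH pathway genes, Smo, the pathway's signal transducer, differed by -0.61 (adjusted p = 0.0382) and Ptch1, the SHH receptor and a target of the pathway, by -0.29 (adjusted p = 0.0221). Gli1, a target of the pathway (-0.58, adjusted p = 0.069), and Mycn (-0.48, adjusted p = 0.302) did not pass, and the median was -0.31. The mean level of the 13 SHH genes was 8.45 in hGFAP tumour 5, near the adult range of 8.01 to 8.26. It was 9.27 to 9.71 in the other hGFAP tumours and 9.38 to 9.90 in Oligo1 tumours. Of 18 granule neuron precursor genes, Unc5c, a netrin receptor, differed by 1.09, Eya1, a transcriptional coactivator, by 0.80 and Barhl2, a homeobox factor, by 0.35, and the median was 0.02. Atoh1, which defines these precursors, was at 6.62 to 12.18 in hGFAP tumours, against 10.50 to 12.31 in Oligo1 tumours (-0.81, adjusted p = 0.24).

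Of 23 genes of Gs and cyclic AMP signalling, 10 were higher and 1 lower in hGFAP tumours, with a median of 0.35. Adcy1, a calcium-activated adenylyl cyclase, was at 8.23 to 11.72 in hGFAP tumours, against 6.77 to 10.07 in Oligo1 tumours and 11.53 to 11.90 in adult cerebellum, a difference of 1.63 (adjusted p = 0.0336). Gnal, the Gs-like subunit Golf, differed by 1.30, Adcy8, another cyclase, by 0.87, and the phosphodiesterases Pde7b, Pde1b and Pde4b, which break down cyclic nucleotides, by 0.66, 0.63 and 0.60. Pde1c, another phosphodiesterase, was lower, by 1.01 (adjusted p = 0.0369). The catalytic subunits of protein kinase A, Prkacb and Prkaca, differed by 0.35 and 0.29, and the regulatory subunit Prkar1a by 0.10 (adjusted p = 0.31). Of the 11 called members, 9 lay within the span. The mean level of the 24 listed genes was 8.53, 8.61, 8.91, 8.76, 9.05, 8.99, 8.49 and 8.77 in hGFAP tumours 1 to 8, against 8.10 to 8.75 in Oligo1 tumours and 9.09 to 9.36 in adult cerebellum. hGFAP tumours 3, 5 and 6 were highest, as they were for the mature granule neuron list, at 10.40, 10.77 and 10.16; the part of mature neurons in the cyclic AMP genes was not tested. With only tumours fitted, 2 of the 23 stayed called, and with sex as a covariate 0 did.

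Most of the other lists had no called gene. None of 8 interferon response genes, 10 endothelial and pericyte genes, 9 reactive glia genes or 5 regional patterning genes passed. Even so, 8 of the 9 reactive glia genes had a positive difference, with a median of 0.30. Of 10 tested genes of the fibroblast and meningeal list, 1 was called higher and 2 lower. Fbln1, a matrix protein, was lower by 0.84 without overlap (adjusted p = 0.00107). Col4a1, a basement membrane collagen, was lower by 0.56, and Slc6a13, a GABA transporter of the meninges, was higher by 0.94. Ttr, made by the choroid plexus, was at 5.29 to 12.67 in hGFAP tumours, against 4.99 to 13.00 in Oligo1 tumours (-0.09, adjusted p = 0.968). No autosomal gene of the blood list or the skeletal muscle list was above 7.61 on the 3 arrays needed for testing. Even so, the mean level of the 4 blood and lymphocyte genes was 5.88 and 6.01 in Oligo1 tumours 3 and 4. On every other array it was 4.17 to 4.88. The highest tumour value was 8.26 for Cd79a and 7.92 for Cd3e.

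**Figure D4:**
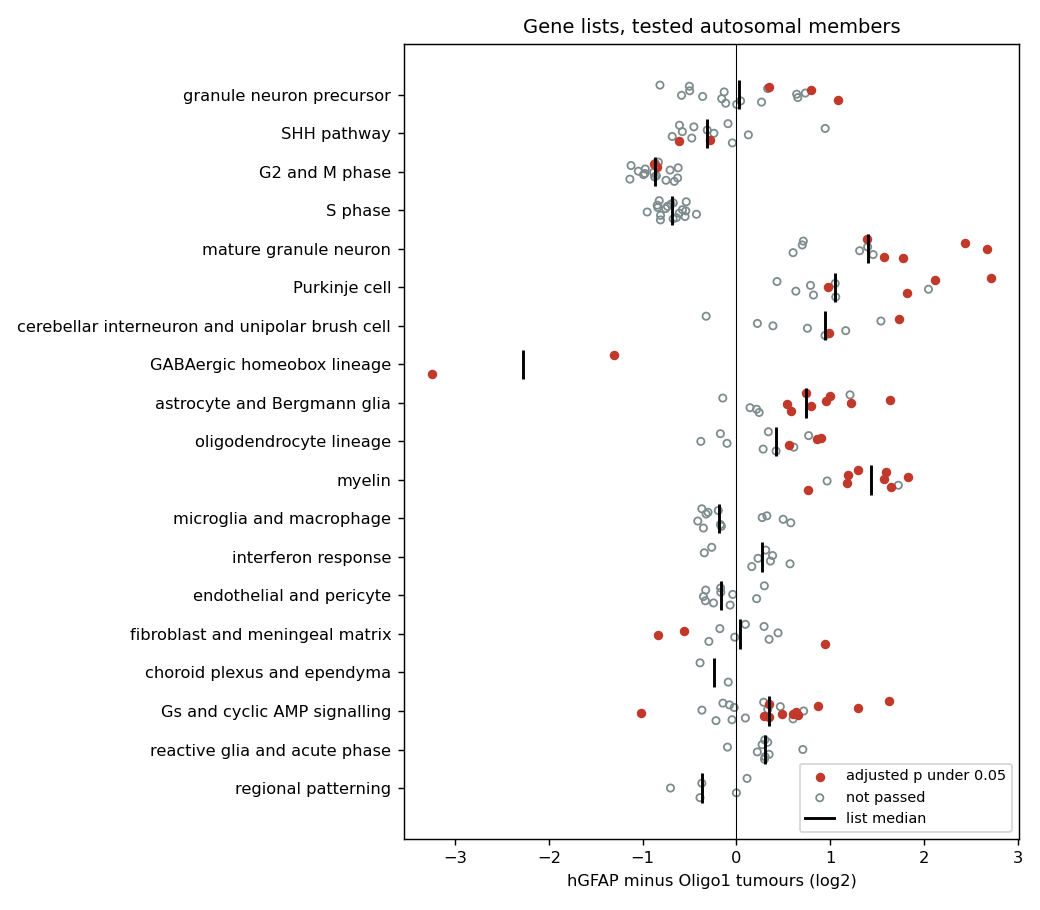
Each row is a gene list and each point 1 tested autosomal member, placed by its hGFAP minus Oligo1 difference (log2); filled points passed the test, open points did not, and the bar is the list's median. The medians of the myelin (1.44), mature granule neuron (1.40) and Purkinje (1.05) lists lie to the right of 0, those of the G2 and M phase (-0.87) and S phase (-0.69) lists to the left.

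Chromosome 6 held more called genes than any other autosome, a pattern noticed after the values were seen. Of its 562 tested genes, 164 were called (29.2%), against 14.8% to 23.8% on the other 18 autosomes. Most were lower in hGFAP tumours, 127 against 37 higher, and the median difference over all 562 was -0.19. The lower calls were not gathered at one end: in each of 10 parts of the chromosome with like gene numbers they outnumbered the higher ones, with medians from -0.28 to -0.06. Relative to all autosomal genes, the median shift of chromosome 6 genes on each array was -0.11, -0.03, -0.12, -0.11, -0.25, -0.07, 0.05 and -0.01 in hGFAP tumours 1 to 8. In Oligo1 tumours 1 to 8 it was 0.12, -0.15, 0.08, 0.12, 0.10, 0.07, 0.06 and 0.05, and in adult cerebellum it was -0.20 to -0.13. Each gene was taken against its median over the tumours, so 0 is not a normal level. Above 0 were 7 of 8 Oligo1 tumours, all but tumour 2, and 1 hGFAP tumour, tumour 7. Above every adult array were all hGFAP tumours but tumour 5 and all Oligo1 tumours but tumour 2. The counts depended on the fit, with 1 higher and 20 lower when only tumours were fitted and 1 higher and 3 lower with sex as a covariate, while the median stayed between -0.24 and -0.13 in every setting that kept the filter on dim genes. Chromosome 17 leaned the same way at a smaller size, with 76 lower and 31 higher, a median of -0.12 and array shifts of -0.06 to -0.01 in hGFAP tumours, against -0.04 to 0.07 in Oligo1 tumours. Over the autosomes other than chromosome 6, the highest shift of any tumour array was 0.32, on chromosome 19 in Oligo1 tumour 2. Copy number was not measured here.

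**Figure D5:**
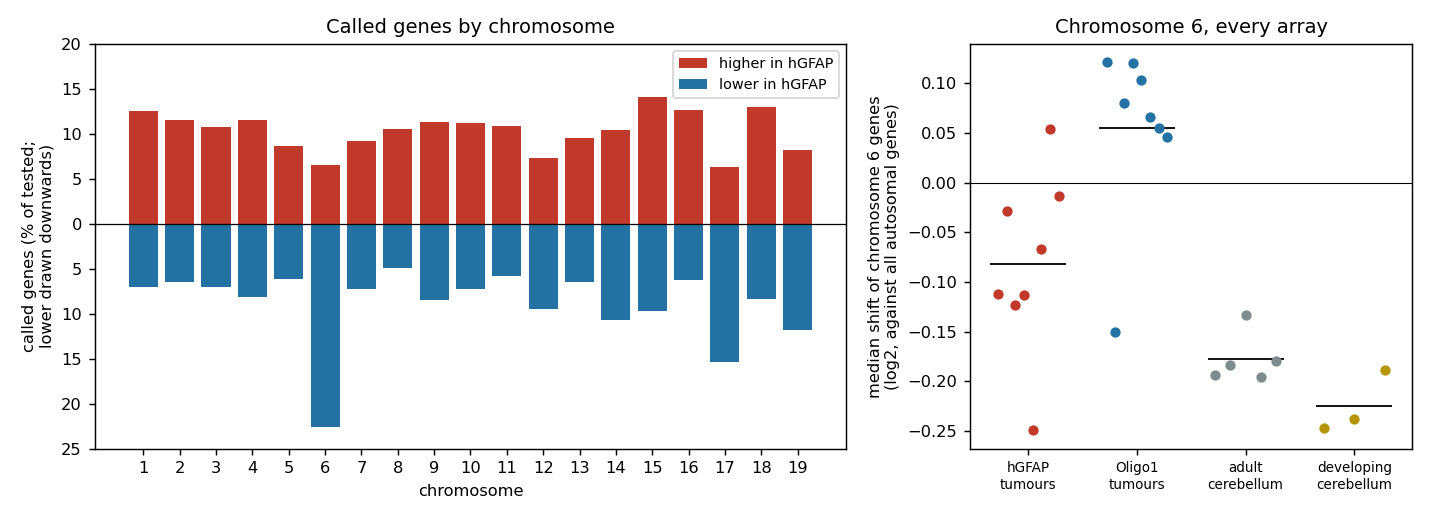
Left, the share of tested genes called higher (up) or lower (down) in hGFAP tumours on each autosome, in percent; right, the median shift of chromosome 6 genes against all autosomal genes on every array (log2), with a line at each group mean. Chromosome 6 has the most called genes (29.2%), 127 of 164 of them lower, and 7 of 8 Oligo1 tumours lie above 0 on the right. There, 0 is set by each gene's median over the tumours, and all hGFAP tumours but tumour 5 lie above every adult array.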

How the data were processed

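Total RNA of 24 mouse samples was labelled with biotin and measured on 1-colour arrays whose model the labels do not name. The deposited values are log2 intensities per probe set, which the authors computed by RMA; the submitters' processing notes name oligo 1.14 and R 2.15. RMA background-corrects and quantile-normalizes, so array totals carry no depth, and the number of arrays limits precision. Of 241576 probe sets, 213361 had 1 gene symbol, 5107 several and 23108 none, and only the first were used. Here the probe sets of each gene were combined by median polish into 20893 genes (R 4.3.3), 2655 of which rest on 1 probe set. Symbols were matched to RefSeq genes of GRCm38.p6 (18496 directly, 2354 by synonym and 43 not at all). Genes above the table's median of 7.61 on at least 3 arrays were tested, 10983 in all. Group differences were tested with limma 3.58.1 over all 24 arrays without covariates, with Benjamini-Hochberg adjustment over all genes tested and a threshold of 0.05. The procedure was tested on simulated data with independent noise and the same spread per gene in every group. That test could not cover unequal spread between groups or changes shared by many genes. The labels call the tumours of a group biological replicates without naming litters. P-values of this fit use 1 spread estimate per gene pooled over all 24 arrays, normal cerebellum included, and not the spread between tumours alone. The median SD was 0.165 in adult cerebellum, against 0.316 in hGFAP tumours and 0.248 in Oligo1 tumours. The developing group joins arrays of different ages. Named genes were Gnas, Olig1, Gfap and, per placement and direction, the 8 largest called differences of at least 2-fold with a named gene; list members were given as examples. Members and lists were chosen with earlier results of these data known. Alternatives covered probe set summary, filters, scaling, variance models, arrays fitted, naming style, replicate number, sex and arrays left out. Figures were drawn with Python 3.11.15 and matplotlib 3.10.9. Genes of the sex chromosomes were left out of all counts.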

Additional observations from a re-analysis of the deposited data

Results flagged for a closer look

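Dixon's gap criterion was applied to each named gene in hGFAP tumours (8 arrays), Oligo1 tumours (8) and adult cerebellum (5), 105 sets that share arrays. In 7 of the 105 sets, 1 array lay far from the others of its group, which chance alone meets in about 1 in 20 sets. In hGFAP tumours, H2-Eb1 was at 7.60 in tumour 7, against at most 6.35 in the other 7 tumours, and Islr2 was at 5.49 in tumour 5, against at least 7.85 in the others. In Oligo1 tumours, Amigo2 was at 8.31 in tumour 6, with the next highest at 7.18. In adult cerebellum, Prm1 was at 9.63 in array 3, with the next highest at 6.24. Also in adult cerebellum, Krt10 was at 5.89 and Cbln3 at 12.55 in array 2, with the next lowest at 6.23 and 12.78. Gfap was at 8.14 in adult array 1, with the next lowest at 8.80. The causes were not tested.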

How the results depend on the processing

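The fit over all 24 arrays called 1095 genes higher and 910 lower, 1725 within the span, 43 beyond the Oligo1 mean and 237 beyond the adult mean, and the settings below are given in that order. Fitting only the tumours gave 138, 75, 171, 1 and 41; sex as a covariate gave 17, 11, 21, 0 and 7; naming style as a block gave 526, 329, 710, 15 and 130. Array weights gave 2187, 1990, 3425, 277 and 475, a 2-fold minimum gave 216, 35, 230, 5 and 16, and the second naming style alone gave 3, 4, 7, 0 and 0. The replicate block gave 109, 64, 134, 1 and 38. Same-numbered tumours correlated at -0.53 to 0.60 in their deviations, over 0.1 in 3 of 8 pairs, and 1 of 8 correlated best with its own number. These correlations cannot decide whether same-numbered tumours were paired. Centring on the median gave 1449 lower and 73 beyond the Oligo1 mean, with 37.1% of calls higher against 54.6%. The stricter filter, at 9.34, gave 527 lower, 21 beyond the Oligo1 mean and 102 beyond the adult mean. The mean of probe sets gave 68 beyond the Oligo1 mean, and the first naming style alone gave 584 lower. Without hGFAP tumour 5 and Oligo1 tumour 6 there were 577 lower, 1061 within and 82 beyond the Oligo1 mean. Chosen after seeing the data, leaving out hGFAP tumour 5 and Oligo1 tumour 2 gave 380 higher, 267 lower, 504 within and 101 beyond the adult mean, and male tumours only, 7 against 2, gave 3, 11, 11, 0 and 3. Leaving out each array in turn gave 311 to 1588 higher, 191 to 1478 lower, 423 to 2642 within, 8 to 67 beyond the Oligo1 mean and 71 to 361 beyond the adult mean. The lowest counts came without Oligo1 tumour 1 (within also without hGFAP tumour 3), and the highest without hGFAP tumours 7, 2, 7, 1 and 2 in that order. Of the calls, 212 of the 213 with only tumours fitted and all 28 with sex as a covariate were among the 2005. No named gene reversed in any setting run. Fewer arrays or residual degrees of freedom are part of the settings that leave arrays out or add terms; the cause of the other changes was not tested. Probes near background limit dim genes.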
